A study of Mus musculus with 15 samples.

Results

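The resting state of a MYC-driven mouse T cell acute lymphoblastic leukemia (T-ALL) line is described here, that is, the cells with the MYC transgene on. Its members were the 3 libraries labelled MYC on and 0 h (mock treatment), of 15 libraries in the series. The other 12 libraries are 3 each at 2, 4, 8 and 24 h after doxycycline, the drug that turns the transgene off. In this model a tetracycline transactivator, driven by an immunoglobulin heavy chain enhancer fused to the SRα promoter (EμSRα-tTA), drives a human MYC transgene (tet-O-MYC). All groups shared this genotype, the FVB/N strain of the tumor-bearing mice from which the line was derived, and growth in RPMI with serum. The libraries were made from polyA RNA. They describe 1 tumor-derived line in culture, the cells are not primary thymocytes, and no label tells if the 3 libraries came from separate cultures. The p-values below therefore measure the spread between these libraries, which may be technical.

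A T-ALL is a malignancy of immature T cells that keep features of the thymic stage at which they arose. Thymocytes pass from a double negative (DN) stage without CD4 or CD8, through a CD4 and CD8 double positive (DP) stage, to single positive cells that carry one coreceptor and leave the thymus. The T cell receptor (TCR) beta chain is rearranged at the DN stage and is tested as a pre-TCR with the Ptcra chain, and the alpha chain is rearranged at the DP stage by the RAG recombinase. Notch1 signaling commits progenitors to the T lineage, and activated Notch1 is a common driver of T-ALL that acts in part through endogenous Myc.

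The human MYC transgene marked the state. It had 53280, 50734 and 49894 counts in replicates 1, 2 and 3 at 0 h, which is 1228, 1154 and 1143 TPM, and the order of the replicates is kept in every set of 3 values below. TPM, the usual unit of relative transcript abundance, is the count per kilobase of gene length scaled to the same total in every library, and is the unit in which genes are compared with each other. At 2 h the transgene already stood at 14.4, 15.7 and 13.8 TPM and at 24 h at 2.402, 2.07 and 2.88 TPM, so that no later library came near the 0 h libraries. Endogenous Myc and Mycn had 0 counts in each 0 h library, where a count of 0 allows up to 3 counts, equal to 0.115 TPM for Myc and 0.0948 TPM for Mycn. How reads shared by human MYC and mouse Myc were assigned was not given in the sources used here. Intervals and such limits cover counting error only.

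The 0 h libraries held 27100999, 27102318 and 27050283 counts, and all 15 libraries held between 25852711 and 27102318. The replicates were alike but not identical. The chi-square per degree of freedom between 2 libraries was 3.00 for replicates 2 and 3, 3.63 for replicates 1 and 2 and 5.58 for replicates 1 and 3, where sampling noise alone gives 1. Among 10009 genes with at least 100 counts in each library, the median coefficient of variation of CPM, counts scaled by the library total, was 4.23%, against 3.00% expected from counting. It exceeded 20% in 16 genes, led among protein-coding genes by Zswim3, at 10.2, 6.46 and 9.65 CPM. At 24 h, replicate 3 stood apart, with a chi-square per degree of freedom of 85.0 and 93.7 against the other replicates, which bears on the comparisons with the later times.

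The surface of the resting cells carried the transcripts of both coreceptors. Cd8b1, the CD8 beta chain, had 1788, 1752 and 1758 TPM, and Cd8a, the alpha chain, had 541, 521 and 539 TPM. Cd4 had 556, 541 and 528 TPM, so that the Cd4 and Cd8a values overlapped while Cd8b1 lay above both in every library. Bulk RNA does not show whether 1 cell held both coreceptors, and fewer cells of a type and less RNA per cell cannot be told apart. Thy1, the pan-T surface glycoprotein, had 1549, 1475 and 1459.5 TPM. The CD3 chains, which carry the TCR signal, followed with 230.2, 247 and 255 TPM for Cd3d, 187, 180.2 and 172 TPM for Cd3g and 165, 163 and 154 TPM for Cd3e. Cd247, the zeta chain, had 89.2, 85.9 and 86.6 TPM. Cd3e shares exon sequence with an antisense gene at 334 TPM, and the strand setting of the counting was not given in the sources used here. This doubt holds wherever an overlap is named below. It holds in lesser measure for genes such as Cd247, Nfatc3, Themis, Lef1, Rag2, Il4ra and Bak1, whose opposite-strand partners were lower than the genes themselves. All 15 listed T cell surface genes reached 1 TPM, here and below as the mean of the 3 libraries, but they spanned a wide range. The lowest were Cd6 at 4.19, 3.11 and 4.44 TPM, Cd2, an adhesion receptor, at 5.202, 5.14 and 5.23 TPM, and Cd5, a dampener of TCR signaling, at 8.101, 6.904 and 6.302 TPM. Across all protein-coding genes, 45.2% reached 1 TPM and 6.84% reached 100 TPM, against 9 of the 15 surface genes at 100 TPM.

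**Figure D1:**
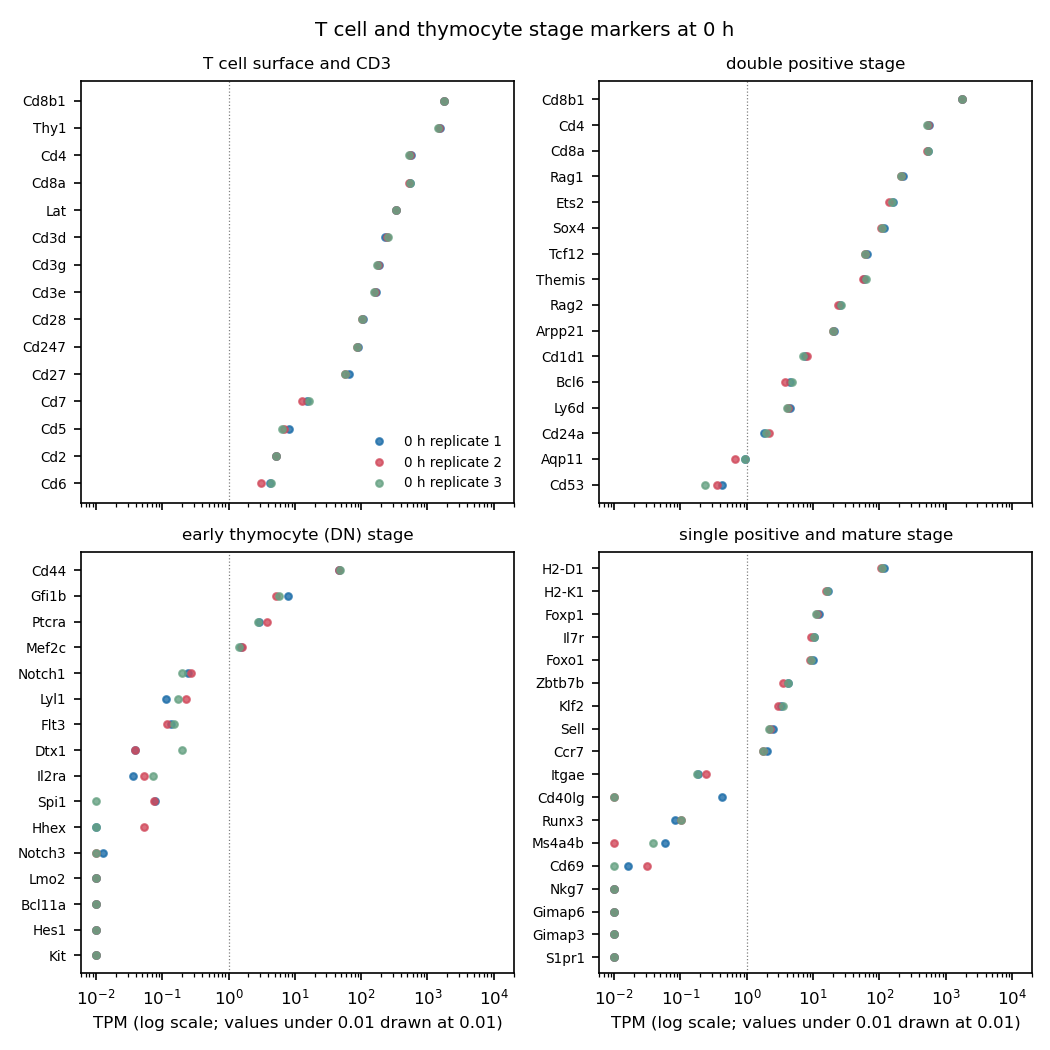
Levels of T cell surface and thymocyte stage markers in the 3 libraries at 0 h. The x axis is TPM on a log scale, each point is 1 library, genes are ordered by mean, and the dotted line marks 1 TPM. A DP marker that is not reported here is not drawn. Most DP markers lie above 1 TPM, and 12 of the 16 DN markers lie below it.

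Of 17 markers of the DP stage, 15 reached 1 TPM and 7 reached 100 TPM. Rag1, the recombinase subunit, had 229, 214 and 213 TPM, and Rag2, its partner, had 25.3, 24.1 and 26.7 TPM. The exons of Rag1 overlap a same-strand gene at 8.91 TPM. Themis, a DP-stage TCR signaling protein, had 59.0, 55.8 and 62.9 TPM. The list was not uniform, since Aqp11 had 0.9395, 0.666 and 0.934 TPM and Cd53 had 0.418, 0.354 and 0.238 TPM. Cd24a, which the DP stage is known to carry at high levels, had 1.82, 2.15 and 1.93 TPM, a value that is uncertain because near-identical copies of this gene exist.

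The DN stage was poorly represented. Of its 16 markers, 4 reached 1 TPM. Kit and Hes1 had 0 counts in each library, and the limit from 3 counts was 0.03505 TPM for Kit and 0.153 TPM for Hes1. Il2ra, the CD25 chain that marks part of the DN stage, had 2, 3 and 4 counts, and Notch3 had 1, 0 and 0. Cd44, an adhesion receptor of early thymocytes and of activated T cells, was the exception with 47.1, 46.9 and 48.8 TPM. Ptcra had 2.84, 3.85 and 2.74 TPM, far under the level of the beta constant gene given below.

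Of 18 markers of the single positive and mature stage, 9 reached 1 TPM and 1 reached 100 TPM. S1pr1, the receptor by which mature thymocytes leave the thymus, had 0 counts in each library, as did Gimap3, Gimap6 and Nkg7. Cd69, induced after positive selection, had 1, 2 and 0 counts. Ccr7 had 2.00, 1.77 and 1.78 TPM, and Runx3, the factor of the CD8 lineage, had 0.0832, 0.103 and 0.103 TPM. Il7r, which is low at the DP stage and returns later, had 10.4, 9.301 and 10.2 TPM. The plot of stage markers shows the DP list on the right and the other stage lists mostly on the left.

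The TCR transcripts were dominated by few segments. Among the constant genes, Trbc2 had 5625, 5708 and 5984 TPM and was the transcript of rank 12 among all 53380 features. Trbc1, the other beta constant gene, had 3, 8 and 9 counts against 37391, 38436 and 40019 for Trbc2. Trac, the alpha constant gene, had 308, 272 and 308 TPM, so that the beta constant transcript exceeded the alpha in every library. The delta constant gene Trdc and the 4 gamma constant genes had 0 counts in each library, with a limit of 0.0808 TPM for Trdc.

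Of 35 annotated beta V segments, 8 had a count at 0 h. Trbv31, at chr6:41557691-41558452 on the minus strand in GRCm38, had 9215, 9118 and 10395 counts. Trbv23, at chr6:41216073-41216526, had 6080, 5975 and 6600 counts. Trbv19, at chr6:41178375-41179048, was far lower with 417, 416 and 462 counts, and no other beta V segment had more than 5 counts in any library. Trbv31 made up 58.6% of the beta V counts in replicate 1 (95% Wilson interval 57.9 to 59.4%), 58.8% in replicate 2 (57.99 to 59.5%) and 59.5% in replicate 3 (58.8 to 60.2%). Trbv23 made up 38.7, 38.5 and 37.8%. By background, Trbv31 is the V segment that lies beyond the beta constant genes in the opposite orientation and joins by inversion. Of 14 beta J segments, 3 had a count. Trbj2-5, named here after its values were seen, at chr6:41543453-41543501, had 421, 413 and 430 counts, or 93.8, 94.7 and 93.5% of the J counts. The tables count reads per segment, so they do not show which V was joined to which J, and a J segment can be covered by unspliced or downstream reads.

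The germline 3′ coding ends of the leading segments are shown because they are the parts that meet at the receptor junction. They are GENCODE M21 sequences of GRCm38, which is built from C57BL/6J, and not reads of these FVB/N cells. Each V sequence covers the last 90 coding bases, and capitals mark its last in-frame cysteine codon, the start of the junction. In the J sequence, shown whole, capitals mark the F-G-X-G codons that end the junction.
Trbv31, chr6:41557691-41557780, minus strand: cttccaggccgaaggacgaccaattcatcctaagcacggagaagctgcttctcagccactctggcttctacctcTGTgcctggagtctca
Trbv23, chr6:41216437-41216526, plus strand: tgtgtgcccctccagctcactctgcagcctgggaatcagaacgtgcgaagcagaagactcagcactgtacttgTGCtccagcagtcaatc
Trbv19, chr6:41178959-41179048, plus strand: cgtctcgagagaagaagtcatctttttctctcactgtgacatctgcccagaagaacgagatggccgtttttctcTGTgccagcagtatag
Trav14-1, chr14:53554469-53554558, plus strand: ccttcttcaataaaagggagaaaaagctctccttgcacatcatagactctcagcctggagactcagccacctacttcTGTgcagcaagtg
Trbj2-5, chr6:41543453-41543501, plus strand: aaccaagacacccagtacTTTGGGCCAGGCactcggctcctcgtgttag
After the cysteine codon the germline V ends kept 13 bases in Trbv31 and Trbv19, 14 in Trbv23 and 10 in Trav14-1.

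The alpha locus looked different from the beta locus. All alpha V segments together had 338, 323 and 320 counts, against 15718, 15515 and 17471 for beta V, and these counts were spread over 59 of 128 segments. Trav14-1, at chr14:53554022-53554558, led with 101, 113 and 123 counts. Its share was 29.9% in replicate 1 (95% Wilson interval 25.2 to 34.97%), 34.98% in replicate 2 (29.99 to 40.3%) and 38.4% in replicate 3 (33.3 to 43.9%). Trav15-1-dv6-1 was next with 34, 28 and 23 counts and Trav13-2 had 26, 31 and 22. Mouse alpha V segments include near-identical copies, so the split between them is uncertain. Alpha J segments had 20, 8 and 12 counts in all, over 17 of 60 segments. Gamma V and J segments had 0 counts, and the 6 delta V segments had 4, 6 and 6 counts in total, led by Trdv2-2 with 2, 3 and 3.

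**Figure D2:**
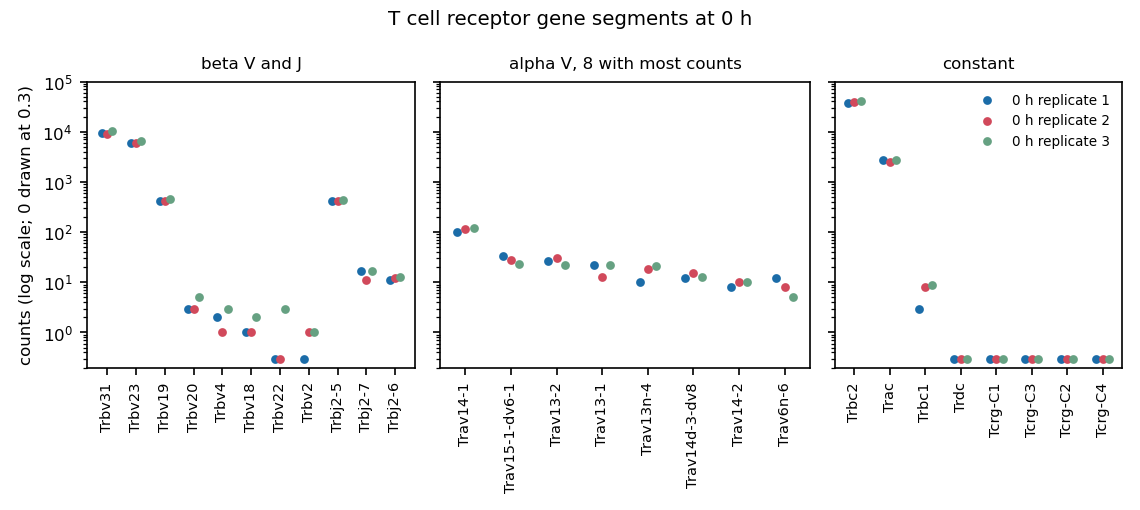
Counts of TCR gene segments in the 3 libraries at 0 h, on a log scale with 0 drawn at 0.3. Each point is 1 library. Trbv31 and Trbv23 stand above the other beta V segments, Trbv19 and Trbj2-5 lie at about the same counts, Trbc2 lies above Trac, and the delta and gamma constant genes are at 0.

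The machinery that makes and reads the receptor was present. Dntt, the terminal transferase that adds bases to junctions, had 2213, 2175 and 2298 TPM and was among the 100 most abundant features. Of the 10 recombination genes, all reached 1 TPM, with Xrcc6, a Ku subunit of end joining, at 265, 251 and 259.5 TPM and Prkdc, the DNA-dependent kinase, at 6.77, 6.41 and 6.18 TPM. The exons of Xrcc6 overlap an opposite-strand gene at 331 TPM, above its own level. Of 23 proximal TCR signaling genes, 21 reached 1 TPM. Lck, the coreceptor kinase, had 406, 403 and 412 TPM, and the adaptor Lat had 336, 336 and 333 TPM. Csk, the kinase that inhibits Lck, had 214, 208 and 208 TPM, above the kinase Zap70 at 191, 178 and 175 TPM. Nfatc3 had 113, 109.6 and 104 TPM while the related Nfatc1 had 3.04, 3.11 and 2.99 TPM and Nfatc2 had 0.738, 0.709 and 0.587 TPM, so that Nfatc3 was the highest of these 3 listed NFAT genes. Tespa1, a signaling adaptor of thymocytes, was low with 0.777, 0.555 and 1.003 TPM.

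Among transcription factors of the T lineage, Tcf7 stood far above the rest. Tcf7, which encodes the T lineage factor TCF-1, had 5579.5, 5349 and 5393 TPM, rank 14 among all features and close to the level of Trbc2. The next were Ets1 at 216, 209 and 216 TPM, Myb at 192, 184 and 184 TPM and Ikzf1, which encodes Ikaros, at 187, 178 and 184 TPM. Lef1, the partner of Tcf7, had 37.1, 35.0 and 34.02 TPM. Gata3, which favors the CD4 lineage, had 46.8, 43.8 and 40.6 TPM, and Bcl11b, which seals T lineage commitment, had 44.8, 39.2 and 40.2 TPM. Tox, which is needed for CD4 lineage development, was low at 0.752, 0.8104 and 0.381 TPM. Foxp3, the factor of regulatory T cells, had 8.04, 8.53 and 8.66 TPM, with 308, 331 and 334 counts, and its exons overlap those of Ccdc22 at 1.44 TPM. Myb and Gata3 share exon sequence with opposite-strand genes at 173 and 49.0 TPM. In all, 20 of 24 factors reached 1 TPM.

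The T-ALL oncogenic transcription factors were mostly undetected. Of 17 listed genes, 11 had 0 counts in each library, among them Tlx1, Tlx3, Lmo1, Lmo2, Hoxa9, Hoxa10, Nkx2-1, Meis1 and Myc. Tal1 had 2, 0 and 1 counts and Lyl1 had 0.116, 0.228 and 0.172 TPM. Myb, given above, and Mef2c at 1.56, 1.61 and 1.42 TPM were the 2 genes of the list at 1 TPM. The T-ALL tumor suppressors were mostly present, with 18 of 22 at 1 TPM. Cdkn2a led with 305, 294 and 308 TPM. This locus encodes both p16INK4a and p19ARF, and the tables hold 1 value for both. Its neighbors on chromosome 4 went separate ways, since Mtap, of the methionine salvage pathway, had 139, 138 and 148 TPM and Cdkn2b had 0.523, 0.5902 and 0.446 TPM. Trp53 had 164, 161 and 153 TPM and Fbxw7, which targets MYC and Notch1 for degradation, had 19.1, 18.4 and 19.6 TPM. Wt1 had 0 counts.

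Of the markers given for these cells, Notch1 was the one that the data did not bear out. Notch1 had 33, 38 and 27 counts, which is 0.241, 0.274 and 0.196 TPM, under 1 TPM in each library. Notch2 was higher with 3.302, 3.31 and 3.10 TPM, Notch4 had 0.0517, 0.1402 and 0.0513 TPM, and Notch3 was given above. The other markers given for the cells, human MYC, Cd3e, Cd4, Cd8a and Thy1, were each over 100 TPM in each library. The processing machinery was nonetheless present, with 16 of 23 genes of the receptor and processing list at 1 TPM. Adam10, the protease of the first cut, had 70.9, 68.2 and 68.6 TPM, and the gamma-secretase subunits Psenen and Ncstn had 88.2, 93.4 and 94.1 TPM and 58.2, 54.5 and 53.5 TPM, with an opposite-strand gene at 126 TPM over exons of Ncstn. Among the Fringe glycosyltransferases, which tune the response to ligands, Mfng had 109, 105 and 108 TPM, Rfng had 26.6, 25.4 and 25.7 TPM and Lfng had 0 counts in each library. Rbpj, the DNA-binding partner of Notch, had 7.63, 6.85 and 7.17 TPM.

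Of 17 genes listed here as Notch targets, 4 reached 1 TPM and 6 had 0 counts in each library. The 6 were Hes1, Hes5, Hey2, Heyl, Myc and Gzmb. Nrarp had 0.0806, 0.159 and 0.0802 TPM and Dtx1 had 0.0395, 0.0390 and 0.196 TPM. The 4 genes above 1 TPM were Tcf7 and Ptcra, given above, Hes6 at 294, 299.6 and 309.9 TPM and Dtx2 at 9.96, 9.82 and 10.1 TPM. By background, Tcf7 and Ptcra are also under the control of factors other than Notch. Whether Notch controls any gene of this list in these cells, Hes6 included, was not tested. All 5 Notch ligands were under 1 TPM, the highest being Jag2 at 0.688, 0.753 and 0.579 TPM.

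Surface receptors differed widely within each family. Of 38 cytokine receptor genes, 20 reached 1 TPM and 8 had 0 counts. Il2rg, the common gamma chain, was the highest with 134, 137 and 127 TPM. Its partner chains were uneven, since Il9r had 51.9, 43.4 and 50.6 TPM, Il7r and Il2ra were given above, Il21r had 8.86, 7.76 and 8.16 TPM, Il4ra had 2.64, 2.76 and 3.103 TPM and Il2rb had 0 counts in each library. Il12rb2 had 75.5, 70.7 and 65.9 TPM against 6.01, 5.13 and 5.07 TPM for Il12rb1, the chain with which it forms the IL-12 receptor, but Il12rb2 shares exon sequence with a gene on the opposite strand at 187 TPM. Each interferon receptor chain reached 1 TPM, with Ifnar2 at 48.3, 47.4 and 48.1 TPM and Ifngr1 at 45.4, 44.7 and 48.2 TPM. Downstream, Stat5b had 155, 141 and 146 TPM and Stat5a had 116, 109.8 and 111 TPM, above Stat3 at 18.8, 17.1 and 16.9 TPM, whose exons overlap those of Stat5a on the opposite strand. Stat4, which signals from the IL-12 receptor, had 0 counts in each library. Of the STAT-induced inhibitors, Socs1 had 93.4, 88.9 and 93.1 TPM, whereas Cish and Socs2 had 0 counts and Socs3 had 0.144, 0.142 and 0.179 TPM.

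Of 24 chemokine and homing receptors, 8 reached 1 TPM. Cxcr4, the receptor for CXCL12 that retains cells in bone marrow and thymic cortex, had 873, 927 and 912 TPM. Selplg, the P-selectin ligand, had 185, 176 and 171 TPM, and Ccr4 had 25.4, 24.8 and 23.9 TPM. Ccr9, the receptor for the thymic chemokine CCL25, had 0.0507, 0.0902 and 0.0908 TPM, and 10 receptors, among them Cxcr3, Ccr2 and Cx3cr1, had 0 counts in each library. Of 17 integrins, 9 reached 1 TPM, led by Itgb1 at 72.3, 73.1 and 73.9 TPM and Itga6 at 26.4, 24.7 and 24.4 TPM. Itgal, the LFA-1 alpha chain, had 10.97, 9.39 and 9.92 TPM. Itgb7 had 6.11, 4.38 and 4.19 TPM, and its coefficient of variation of CPM, 20.99%, placed it among the 10 most variable protein-coding genes at 0 h.

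Of 18 TNF receptor genes, 9 reached 1 TPM. Cd27 had 64.6, 56.8 and 56.9 TPM, Tnfrsf8, which encodes CD30, had 43.9, 43.6 and 40.5 TPM, and Tnfrsf13b, which encodes the B cell receptor TACI, had 34.8, 33.8 and 33.9 TPM. The death receptor Fas had 24.3, 21.9 and 22.1 TPM. Of 24 inhibitory and costimulatory receptors, 9 reached 1 TPM. Cd28 led with 107, 101 and 102 TPM, and Ctla4, its inhibitory counterpart, had 26.5, 23.5 and 23.3 TPM. Cd47, the signal that restrains macrophages, had 15.9, 15.04 and 15.9 TPM, and Cd274, which encodes PD-L1, had 7.16, 6.67 and 7.89 TPM. Pdcd1 had 2, 3 and 1 counts, Lag3 had 4, 0 and 4 and Havcr2 had 0 counts in each library. Cd160 reached 1 TPM, and an opposite-strand gene at 6.74 TPM lies over its exons. Siglece, the mouse receptor for sialylated ligands, had 3, 1 and 0 counts. Among mucin-like surface proteins, which carry O-glycans, Cd164 had 374, 379 and 379 TPM and Spn, which encodes CD43, had 82.6, 79.04 and 75.9 TPM. Ptprc, which encodes CD45, had 41.7, 40.8 and 42.6 TPM.

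**Figure D3:**
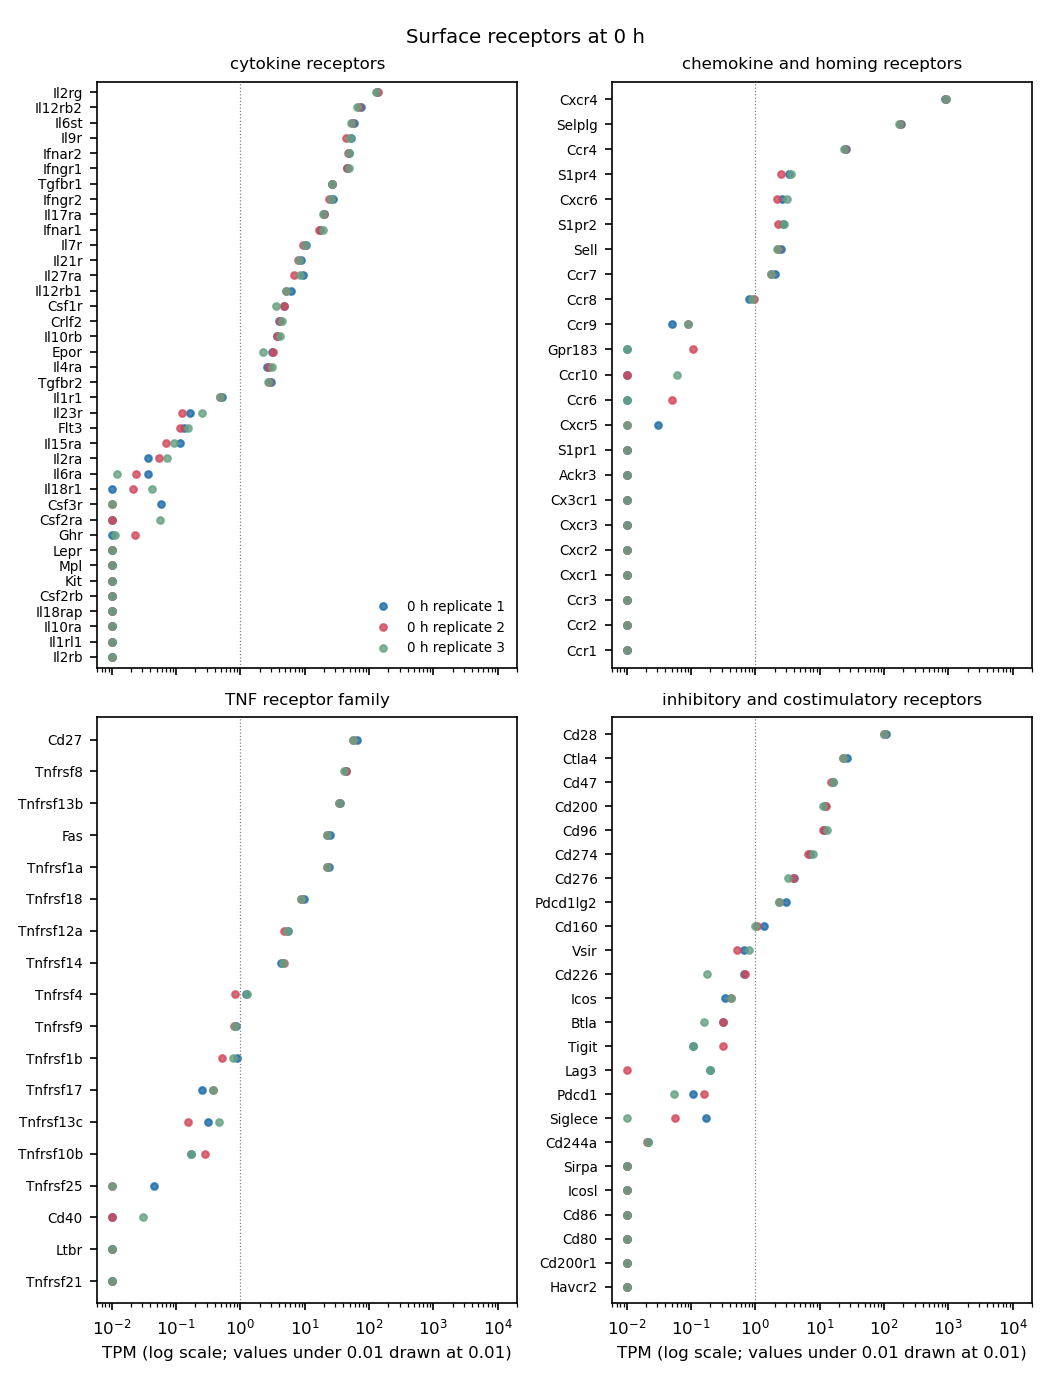
Levels of 4 families of surface receptors in the 3 libraries at 0 h. The x axis is TPM on a log scale, each point is 1 library, and values under 0.01 TPM are drawn at 0.01. A chemokine receptor that is not reported here is not drawn. Il2rg, Cxcr4, Cd27 and Cd28 lead their families, and each family has members at or near 0.

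Secreted and effector genes were mostly undetected. Of 28, 5 reached 1 TPM and 15 had 0 counts in each library, among them Ifng, Gzmb, Il17a, Il10 and Fasl. The highest were Il16 at 36.9, 36.3 and 36.2 TPM, Tgfb1 at 29.7, 27.7 and 25.5 TPM and the granzyme gene Gzma at 13.6, 10.8 and 12.1 TPM. The place of Il16 is uncertain, since its exons overlap an opposite-strand gene at 38.6 TPM. Il2 had 1.55, 0.629 and 0.543 TPM and Il4 had 2.55, 2.18 and 2.19 TPM.

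Markers of other cell types were searched for as a check of the label. In the B cell list, 3 of 14 genes reached 1 TPM and the summed level was 124, 111 and 119 TPM, almost all of it Ighm at 115, 105 and 113 TPM. Pax5, Ebf1, Ms4a1 and Cd79b had 0 counts in each library, and the heavy chain V segments together had 2, 4 and 4 counts. In the myeloid list, 5 of 17 genes reached 1 TPM, each under 10 TPM, with a summed level of 20.1, 17.2 and 18.1 TPM. Csf1r and Cebpb reached 1 TPM, and opposite-strand genes at 24.7 and 16.1 TPM lie over their exons. Lyz2, Adgre1, Cd14, S100a8 and S100a9 had 0 counts. The dendritic list had 0 of 12 genes at 1 TPM. In the NK and innate lymphoid list, 3 of 13 genes reached 1 TPM, with a summed level of 203, 194 and 189.6 TPM. Among them were Zbtb16 and Gata3, the latter given above as a T lineage factor. Of the 3, 1 was at 100 TPM or more, 1 at 10 to 100 TPM and 1 at 1 to 10 TPM. Gata3 was the middle one, so most of the sum came from another of the 3. Which one it was is not reported here. Ncr1, Klrd1 and Nkg7 had 0 counts. In the erythroid and megakaryocyte list, 2 of 14 genes reached 1 TPM, Epor at 3.14, 3.204 and 2.24 TPM and Tfrc, the transferrin receptor of dividing cells, at 588, 614 and 649 TPM, while Gata1 and Pf4 had 0 counts. The stem and progenitor list had 3 of 10 genes at 1 TPM, led by Mecom at 5.39, 5.45 and 5.17 TPM. The stroma and epithelium list had 2 of 18, Vim and Pecam1, with 0 counts for Epcam, Col3a1 and Foxn1. Over all protein-coding genes, 8427 of 21865, or 38.5%, had 0 counts in every 0 h library.

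Genes of the translation machinery were the most abundant transcripts. At 0 h, 12190 features had at least 1 TPM in each library, of which 9764 were protein-coding. The 86 cytoplasmic ribosomal protein genes took 17.7, 18.2 and 18.1% of TPM, and translation factors took 3.99, 4.10 and 4.16%. Mitochondrial genes took 4.81, 4.67 and 4.29%, the lowest being replicate 3. TCR segments took 1.12, 1.11 and 1.20%, and the MYC transgene took 0.123, 0.115 and 0.114%. TPM weights short genes up, and as shares of counts the means were 10.6% for ribosomal protein genes, 1.77% for mitochondrial genes, 0.215% for TCR segments and 0.189% for the MYC transgene. The 100 most abundant features together took 32.2% ± 0.238 (SD, n = 3) of TPM.

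**Figure D4:**
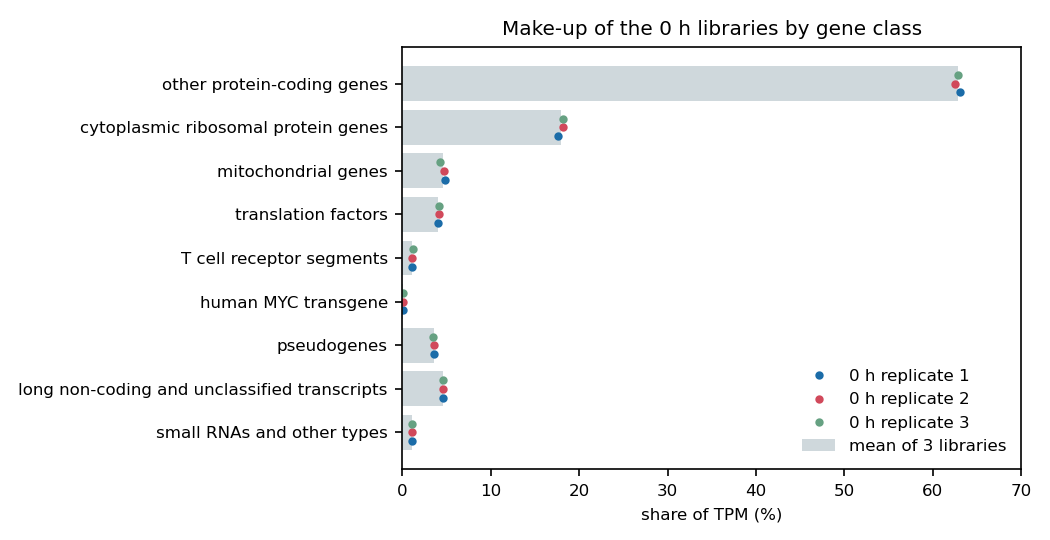
Share of TPM by gene class at 0 h. Bars are the mean of the 3 libraries, points are the libraries, and the x axis is in percent. Ribosomal protein genes take 17.7 to 18.2% and TCR segments 1.11 to 1.20%.

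Of the 30 most abundant features, 19 were ribosomal protein genes, 4 were mitochondrial, 2 were translation factors and 1 was Trbc2. Eef1a1, the elongation factor that brings aminoacyl-tRNA to the ribosome, was first with 17011, 17991 and 18555 TPM. The remaining 4 were Ptma, which encodes prothymosin alpha, at 9079.5, 9030.1 and 9303 TPM, Npm1, the nucleolar protein nucleophosmin, at 5938, 6200.3 and 5965 TPM, the chaperone gene Hsp90ab1 at 4428, 4501 and 4463 TPM, and Tcf7, given above. Short features are inflated in TPM, since few reads give a high value per kilobase. Trbj2-5, with a length of 49 bases, reached 894, 866 and 908 TPM from about the same counts as Trbv19 at 76.7, 75.5 and 84.5 TPM.

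To place the resting state among the other libraries, the mean at 0 h was compared with the average of the 2, 4, 8 and 24 h means in 1 fit of edgeR's quasi-likelihood model. A difference is given as log2 of 0 h minus later, and calls were made under an adjusted p of 0.01 (Benjamini-Hochberg). The later means were averaged on the log2 scale. A later CPM value printed beside a difference is a plain mean, so the 2 need not match. Of 14485 genes tested, 3513 were higher at 0 h (24.3%) and 3369 were lower (23.3%), with a median difference of -0.065 over all genes. These shares are the background for the list counts below. With library totals in place of TMM scaling the split was 2762 higher and 4514 lower, and the median moved to -0.18, so small differences depend on the scaling. In 2198 genes (15.2%) all 3 libraries at 0 h lay above the 12 others, and in 1694 (11.7%) they lay below. The comparison takes 4 later times together and does not describe their course.

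The MYC network list had 5 of 10 tested genes higher and 2 lower, with a median of 0.12, though with library totals 4 were higher and 4 lower, and without 24 h replicate 3 the count of lower genes was 4. Max, the dimer partner of MYC, was 1.01 ± 0.0428 (SE, edgeR adjusted p = 1.31e-11) and Mnt, a repressor that competes for Max, was 1.18 ± 0.119 (SE, edgeR adjusted p = 4.67e-07). For Max the 0 h libraries lay above all others. Max stood at 183 CPM at 0 h against 91.9 later.

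The T cell genes leaned the other way. Of 15 tested T cell surface genes, 12 were lower at 0 h and 3 were not called, with a median of -0.41. Without the 24 h libraries in the contrast the count was 7. Cd28 was -0.85 ± 0.0423 (SE, edgeR adjusted p = 9.06e-11) and Cd3d was -0.55 ± 0.125 (SE, edgeR adjusted p = 0.00137), the latter at an adjusted p of 0.014 without 0 h replicate 1. Cd8b1 at -0.12 and Cd3e at -0.17 were not called (edgeR adjusted p = 0.0345 and 0.014). Cd4 (-0.21), Cd8a (-0.26) and Thy1 (-0.19) were called (edgeR adjusted p = 0.00659, 8.87e-05 and 0.00279). With 2, 4 and 8 h alone, Cd4 was -0.06 and Thy1 was -0.01, both uncalled, and Cd8a was 0.02, so that these 3 calls rested on the 24 h libraries. The calls of Cd4 and Thy1 were also lost when any 1 of the 3 libraries at 0 h was left out (edgeR adjusted p from 0.0259 to 0.0431 for Cd4 and from 0.0128 to 0.0267 for Thy1). The leading TCR constant genes were also lower at 0 h. Trbc2 was -0.69 ± 0.0646 (SE, edgeR adjusted p = 1.68e-07), and Trac was -1.46 ± 0.0553 (SE, edgeR adjusted p = 3.14e-12), with all 3 libraries at 0 h under every later one for both genes. The pre-TCR chain Ptcra was higher, at 0.64 ± 0.161 (SE, edgeR adjusted p = 0.0031), a call lost without 0 h replicate 2 (edgeR adjusted p = 0.0533). Of 6 tested DN markers, 3 were higher and 0 lower. Against 2, 4 and 8 h alone 2 were higher and 0 lower.

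Of 17 tested DP markers, 11 were lower and 1, Cd24a, was higher, with a median of -0.47. Against 2, 4 and 8 h alone 7 were lower, with a median of -0.20. The call of Cd24a was lost without 0 h replicate 2 or 0 h replicate 3 (edgeR adjusted p = 0.0213 and 0.0101). Themis was -0.95 ± 0.0665 (SE, edgeR adjusted p = 6.23e-09). Of 10 recombination genes, 6 were lower and 1 was higher. Rag1 was -0.47 ± 0.0586 (SE, edgeR adjusted p = 4.69e-06) and Dntt was -0.41 ± 0.0753 (SE, edgeR adjusted p = 0.000205), whereas Xrcc5, a Ku subunit, was 0.74 ± 0.0549 (SE, edgeR adjusted p = 1.19e-08). Of 23 lineage transcription factors tested, 14 were lower and 1, Lef1, was higher, a call that was lost with library totals (edgeR adjusted p = 0.0124). Gata3 was -1.24 ± 0.0945 (SE, edgeR adjusted p = 1.66e-08). Tcf7 was not called, at 0.07 with TMM and -0.05 with library totals (edgeR adjusted p = 0.401 and 0.642).

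Proximal TCR signaling was mixed, with 10 of 23 genes lower and 3 higher. Lck was -0.67 ± 0.0735 (SE, edgeR adjusted p = 1.06e-06) and Tespa1 was -2.45 ± 0.133 (SE, edgeR adjusted p = 2.66e-10). The 3 higher genes were Ubash3a, a suppressor of TCR signaling, 1.88 ± 0.0571 (SE, edgeR adjusted p = 2.45e-13), Csk, 0.96 ± 0.0542 (SE, edgeR adjusted p = 4.31e-10), and Sla2, an adaptor that dampens TCR signaling, 0.49 ± 0.0756 (SE, edgeR adjusted p = 3.92e-05). Sla2, at 120.5, 116 and 122 TPM, shares exon sequence with a gene on the opposite strand at 166 TPM, so its level and difference are uncertain. For each of these 3 genes the 0 h libraries lay above all others. Other listed genes that dampen TCR signaling did not follow. Sla was lower, at -0.43 ± 0.0819 (SE, edgeR adjusted p = 0.000302), and Cblb was not called at -0.165 (edgeR adjusted p = 0.114).

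Of 20 tested genes of the Notch receptor and processing list, 9 were higher and 3 were lower at 0 h, but with library totals the counts were 4 and 5. Mfng was 2.18 ± 0.0468 (SE, edgeR adjusted p = 7.45e-15), the largest difference of the list. Notch1 was not called at -0.25 (edgeR adjusted p = 0.411), from 1.29 CPM at 0 h and 1.74 CPM later, and was 0.14 against 2, 4 and 8 h alone. Hes6 was 0.56 ± 0.0624 (SE, edgeR adjusted p = 1.23e-06). Of 21 tested tumor suppressors, 6 were higher and 8 lower, against 24.3% higher and 23.3% lower over all genes tested. With library totals 2 were higher and 9 lower. Mtap was 2.07 ± 0.0555 (SE, edgeR adjusted p = 7.21e-14) and Trp53 was 0.76 ± 0.0813 (SE, edgeR adjusted p = 8.04e-07), while Cdkn1b, which encodes p27, was -1.47 ± 0.0808 (SE, edgeR adjusted p = 2.94e-10). Cdkn2a was 0.28 ± 0.0720 (SE, edgeR adjusted p = 0.00353), a call that was lost when any 1 of the 3 libraries at 0 h was left out (edgeR adjusted p from 0.0142 to 0.0223).

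Most receptors that passed the test were lower at 0 h. Of 23 tested cytokine receptor genes, 14 were lower and 3 higher, and of 14 inhibitory and costimulatory receptors 7 were lower and 2 higher. Ifngr1 was -0.89 ± 0.0741 (SE, edgeR adjusted p = 4.68e-08) and Ctla4 was -0.91 ± 0.123 (SE, edgeR adjusted p = 1.08e-05). Cxcr4, though the most abundant receptor of its list at 0 h, was -0.79 ± 0.0873 (SE, edgeR adjusted p = 1.19e-06). Some receptors went the other way. Il9r was 1.17 ± 0.0644 (SE, edgeR adjusted p = 3.12e-10), Tnfrsf8 was 0.98 ± 0.0719 (SE, edgeR adjusted p = 1.03e-08), Ccr4 was 0.65 ± 0.0573 (SE, edgeR adjusted p = 8.22e-08) and Itgb1 was 0.87 ± 0.0494 (SE, edgeR adjusted p = 4.63e-10). Fas was -1.29 ± 0.112 (SE, edgeR adjusted p = 7.46e-08).

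**Figure D5:**
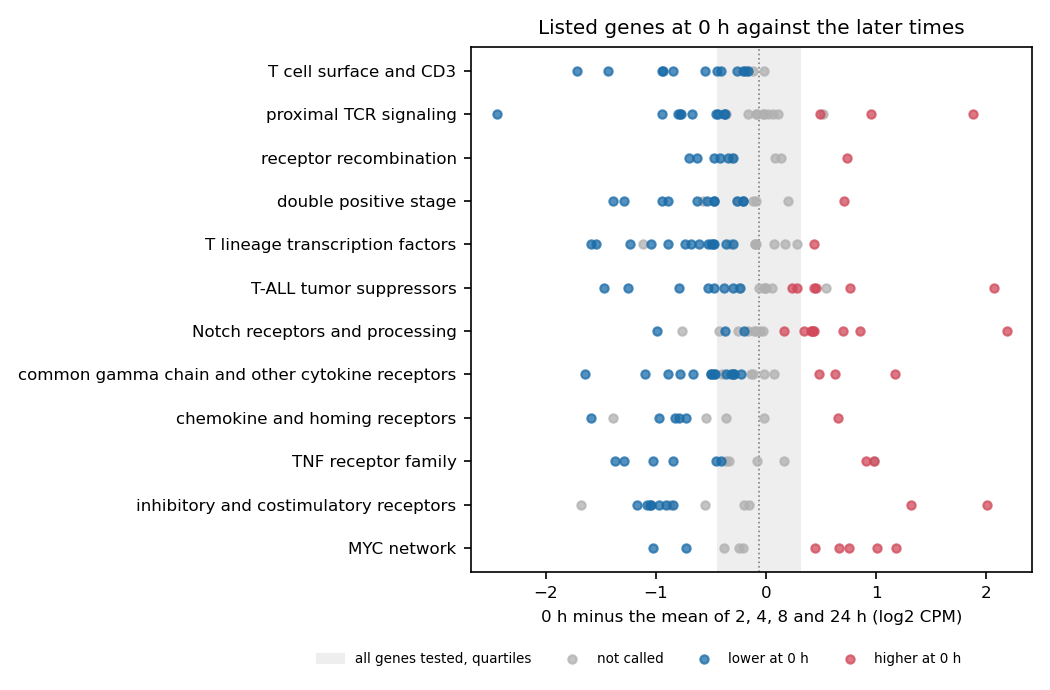
Log2 difference between 0 h and the mean of the later times for the tested genes of 12 lists. Each point is 1 gene, colored by its call at an adjusted p under 0.01, the gray band spans the middle quartiles of all genes tested and the dotted line is their median of -0.065. Surface and DP genes lie mostly to the left, and MYC network genes lie on both sides.

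The genes that set the resting state apart most strongly were taken from those called, with 10 CPM or more on the higher side and with 0 h libraries outside the range of the 12 others, of which there were 1838 higher and 1185 lower protein-coding genes. They are described by their values, since they were picked for this difference. The 10 most raised at 0 h were Srm, Fjx1, Polr1b, Car12, Bcat1, Angptl4, Gnl3, Trmt61a, St6galnac4 and Rrp12. Srm, the spermidine synthase of polyamine synthesis, had 592, 571 and 578 TPM, with a mean of 9.58 TPM at 24 h and a difference of 4.39. Polr1b, a subunit of RNA polymerase I, differed by 3.57, and Gnl3 and Rrp12, which act in the nucleolus, by 3.27 and 3.05. Bcat1, which transaminates branched-chain amino acids, differed by 3.49. St6galnac4, a sialyltransferase that adds sialic acid to O-glycans, had 33.2, 31.9 and 29.7 TPM and differed by 3.11. Fjx1 had 13.4, 11.8 and 12.02 TPM at 0 h and a mean of 1.95 TPM at 2 h.

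The 10 most lowered at 0 h were Etv5, Tespa1, Filip1l, Ccng2, Rab37, Cdkn2d, Hist1h1c, Col6a3, Txk and Cdh24. In the resting state 8 of them were under 10 TPM. Etv5, an ETS family factor, had 0.863, 0.726 and 0.757 TPM at 0 h and a mean of 21.7 TPM at 24 h, with a difference of -2.69. Ccng2, a cyclin of cells that leave the cycle, had 17.7, 17.3 and 19.1 TPM at 0 h and a mean of 165 TPM at 24 h. Cdkn2d, an inhibitor of CDK4 and CDK6, had 32.9, 31.7 and 34.5 TPM at 0 h and a mean of 279 TPM at 24 h. Txk, a Tec family kinase of T cells, had 1.501, 1.19 and 1.38 TPM and differed by -1.81. Cdh24, a cadherin, differed by -1.73, and by -0.84 against 2, 4 and 8 h alone, where it was not called (edgeR adjusted p = 0.01).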

How the data were processed

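PolyA RNA of 15 libraries was sequenced, 3 at each of 5 times. The deposited tables, 1 per library, hold read counts per gene and TPM for 53380 features. The deposited tables also hold counts per kilobase, FPKM and a percentile rank given as a fraction, all computed by the authors, of which the first served to check TPM and the others were not used. Per the submitters' processing notes the authors used cutadapt 1.16, STAR 2.5.4b and featureCounts with mm10. The sources used here name neither the annotation release nor the strand setting. The deposited TPM equals counts per kilobase rescaled to a common total, with a largest relative difference of 3.80e-14. Of 53379 mouse gene IDs, 53274 matched GENCODE M21, which gave names, positions and sequences. Totals were 25852711 to 27102318 counts per library.

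Levels are the deposited TPM. Differences come from edgeR 4.0.16 (quasi-likelihood test, TMM scaling, low-count filter, R 4.3.3) on the deposited counts of all 15 libraries. They are 0 h minus the average of the later means, all on the log2 scale. Calls were made under an adjusted p of 0.01 (Benjamini-Hochberg). DESeq2 1.42.0 was an alternative, with other scalings, no filter, no 24 h libraries, a replicate block and leaving out each library. On simulated counts for 14118 genes in this comparison, 62 of 67 genes changed 1.5-fold and 66 of 66 changed 4-fold were recovered, and 3 of 13918 unchanged genes were called. The simulation had few changed genes, none of low count, and gave every gene the same dispersion. Its later times were equal and no library stood apart. These rates therefore check the code and do not carry over to the data.

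Members and gene lists were chosen with earlier results of these data known, and 6 lists were added after values were seen. Named genes are list members, the 30 most abundant features, the 3 leading V segments per locus, and the 10 protein-coding genes per direction with the largest difference among those called, at 10 CPM in the higher group, with 0 h libraries outside the range of the 12 others. The 10 most variable protein-coding genes at 0 h could be named too. A part of the rule on genes ordered by the ratio of 0 h to later was not used. Values of some single genes are not reported here, while list counts cover all members.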

Additional observations from a re-analysis of the deposited data

How the results depend on the processing

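Of 75 single-gene differences between 0 h and the later times that were followed through the alternatives, 61 kept their direction and call in every alternative run and 14 did not, namely Cd3d, Cd3e, Cd4, Cd8a, Cd8b1, Thy1, Tcf7, Cdkn2a, Ptcra, Bcl2, Cdh24, Notch1, Cd24a and Lef1. Of the 75, 71 were called in the main fit, against 24.3% higher and 23.3% lower over all genes tested. Some were picked for a large difference in these same data, so the 61 do not measure how stable calls are in general. Against the mean of 2, 4 and 8 h, Cd8a turned to 0.023 and Cd8b1 to 0.068 and Notch1 to 0.136, all uncalled. Tcf7 turned to -0.046 with library totals and to -0.035 with upper-quartile factors. The cause was not tested. Leaving out 1 library at a time gave 3018 to 4239 genes higher and 2481 to 4291 lower, the highest of both without 24 h replicate 3, and DESeq2 gave 3925 and 3254. Library totals gave 2762 higher and 4514 lower, and upper-quartile factors 2822 and 4439. The share of the 100 most abundant features, 32.2% of TPM, was 30.4% without mitochondrial genes and 22.05% of counts. The share of Trbv31 among beta V segments, 59.0% of counts, was 55.0% of TPM, which divides by segment length. Deviations of same-numbered libraries of different times had correlations from -0.599 to 0.541 over 30 pairs, with a median of 0.041. Pairs with different numbers had correlations from -0.484 to 0.548 over 60 pairs, with a median of -0.0243. With 3 libraries per time this check is weak and cannot exclude that the numbers pair them. With a replicate block 3388 genes were higher and 3174 lower, and among these differences the call of Cd4 was lost (edgeR adjusted p = 0.0127). Rescaling TPM to nuclear protein-coding genes multiplied each level by 1.18. At this depth a count of 0 limits a level, and does not show that a gene is silent.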

Other observations

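The gene groups below were chosen after values of these libraries had been seen. Of 12 pan-leukocyte genes, 10 reached 1 TPM at 0 h. Ptprcap, which encodes a protein associated with CD45, had 856, 852 and 827 TPM. Its exons overlap a same-strand gene at 166 TPM and an opposite-strand gene at 29.9 TPM. Of 17 genes of the BCL2 family, which decides on apoptosis, 9 reached 1 TPM. The pro-survival members were uneven, since Mcl1 had 141, 141 and 146 TPM, Bcl2l1 had 86.8, 86.1 and 80.5 TPM and Bcl2 had 1, 9 and 6 counts. Among the pro-death members, Bak1 had 193, 187 and 178 TPM and Bax had 63.1, 71.8 and 69.3 TPM, while Bcl2l11, which encodes BIM, had 10.01, 9.96 and 9.59 TPM. In 0 h minus later, log2, Bcl2 was -1.71 ± 0.449 (SE, edgeR adjusted p = 0.00404). This call was lost without 0 h replicate 1 (edgeR adjusted p = 0.0303) or 0 h replicate 3 (edgeR adjusted p = 0.0155). Against 2, 4 and 8 h alone Bcl2 was -0.895 and uncalled (edgeR adjusted p = 0.131). Bcl2l1 was -0.59 ± 0.0475 (SE, edgeR adjusted p = 3.16e-08) against all later times. Of 12 p53 target genes, 9 reached 1 TPM. Trp53inp1 had 119, 108 and 121 TPM, Mdm2, the p53 ubiquitin ligase, had 41.2, 39.9 and 40.0 TPM and Cdkn1a, which encodes p21, had 17.7, 14.3 and 14.7 TPM. The 9 tested p53 targets had 3 genes higher and 4 lower than later, against 24.3% higher and 23.3% lower over all genes tested.

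Of 15 class I genes of the H2 complex, 14 reached 1 TPM. H2-Q2 had 2288, 2351 and 2348 TPM and H2-Q1 had 1142, 1126 and 1147 TPM, far above H2-D1 at 118, 104 and 108 TPM and H2-K1 at 16.6, 15.5 and 16.2 TPM. FVB/N mice carry another H2 haplotype than the C57BL/6J reference, and these genes are near-identical copies, so how reads were split among them is uncertain. Of 8 HMG and chromatin genes, 6 reached 1 TPM, led by Hmgb2 at 959, 970.1 and 979 TPM and Cdca7 at 729.5, 705 and 714 TPM. On the sex chromosomes, the Y-linked genes Eif2s3y and Ddx3y had 45.3, 43.6 and 44.7 TPM and 24.2, 21.5 and 25.1 TPM, and Xist had 1, 3 and 2 counts.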
